A study of Mus musculus with 12 samples.

Results

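The transmitter identity and chloride transport genes of the newborn mouse forebrain were followed as a set of 8 genes, chosen by symbol from the 55335 genes measured. They were the vesicular glutamate transporters Slc17a6, Slc17a7 and Slc17a8, the vesicular GABA transporter Slc32a1, the GABA-synthesizing enzymes Gad1 and Gad2, and the chloride cotransporters Slc12a2 and Slc12a5. All 8 were found in the files under these symbols. The data were single-nucleus RNA sequencing libraries of forebrain at postnatal day 1, a stage abbreviated P1, with 1 library per animal. The labels gave 8 WT libraries, from 5 male and 3 female animals, and 4 Het libraries, from 3 male animals and 1 female animal. WT 6, WT 7, WT 8 and Het 4 were the female libraries.

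WT animals carried 2 intact copies of Myt1l, a neuronal zinc finger transcription factor, and Het animals carried 1 intact copy and 1 copy with the germline frameshift allele S710fsX, in every cell, on a C57BL/6 background. Het mice were bred to C57BL/6J mice to give animals of both genotypes, and no treatment was given. The running text of the study gives the number of animals of the 2 genotypes at this age the other way round from the labels, while its legend gives them as the labels do, and the labels were followed. The study names the tissue forebrain in most places and prefrontal cortex in its methods once, so the extent of the dissection is uncertain. According to its methods the animals were drawn from a few litters and many were littermates. The labels do not say which animals shared a litter, so every test here treats them as independent and its p-value measures the spread between animals as labelled.

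The libraries held 15439429 to 40784144 unique molecular identifiers (UMIs, each 1 counted RNA molecule), and 4718 to 11609 nuclei per library passed the filter of the study. After removal of doublets 96406 nuclei were used, and 94.1% of them fell in clusters that received a class name from marker genes, none of which was one of the 8 genes. Names carry "-like" because they rest on markers alone. Cluster 23 and cluster 26, both excitatory, kept their numbers. Both scored highest on an L6b and subplate list, but cluster 23 raised only 1 of its markers, and deep-layer markers were among the leading genes of cluster 26. Cluster 31 raised 10 microglia markers, but Mrc1 and F13a1, known from macrophages at the borders of the brain, led it, so it kept its number too. Levels are given in CPM, the UMIs of a gene scaled to the same total in each sum. The midbrain and hindbrain genes En1, En2, Hoxb3, Hoxc4 and Hoxa5 stayed at or under 0.629 CPM in every library. Myt1l ranged from 1268 to 1612 CPM in WT and from 1530 to 1652 CPM in Het libraries, with overlapping groups (log2 fold change 0.11, edgeR adjusted p = 0.546). The frameshift allele can still be transcribed, so this level does not check the genotype labels.

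A neuron's transmitter is set by what it loads into its synaptic vesicles. Slc17a6, Slc17a7 and Slc17a8 encode VGLUT2, VGLUT1 and VGLUT3, which fill vesicles with glutamate. Gad1 and Gad2 encode the enzymes GAD67 and GAD65, which make GABA from glutamate, and Slc32a1 encodes VGAT, which packs GABA or glycine. Rodent cortical neurons are known to use VGLUT2 early and VGLUT1 as they mature. Whether GABA excites or inhibits depends on the chloride inside the cell, which the importer NKCC1, encoded by Slc12a2, raises and the exporter KCC2, encoded by Slc12a5, lowers. KCC2 is known to increase over the first postnatal weeks in rodent cortex.

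The promoters of the 2 main vesicular glutamate transporters and of both GABA enzymes are printed here because their transcripts divided the neuronal classes. The sequences are from RefSeq on GRCm38.p6, run 5′ to 3′ on the gene's own strand, and each holds 300 bases around a transcription start. RefSeq gave Slc17a6 a second window further into the gene, which is not printed and held 0 matches to the letters below. The printed window of Slc17a6 ends before the gene start annotated in GENCODE, and that of Gad1 lies within the gene span annotated there. Capitals mark AAGTT and its reverse complement AACTT, the letters at the core of the site that MYT1L is known to recognize, searched on both strands. The Slc17a6 promoter lies at chr7:51621580-51621879, the Slc17a7 promoter at chr7:45163671-45163970, the Gad1 promoter at chr2:70561879-70562178 and the Gad2 promoter at chr2:22622077-22622376, all on the plus strand.
Slc17a6: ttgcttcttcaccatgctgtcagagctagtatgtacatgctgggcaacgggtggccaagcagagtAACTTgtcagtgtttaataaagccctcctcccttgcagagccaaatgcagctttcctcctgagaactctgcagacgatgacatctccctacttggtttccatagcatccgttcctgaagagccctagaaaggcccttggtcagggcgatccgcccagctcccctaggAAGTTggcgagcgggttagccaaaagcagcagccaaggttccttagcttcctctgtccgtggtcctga
Slc17a7: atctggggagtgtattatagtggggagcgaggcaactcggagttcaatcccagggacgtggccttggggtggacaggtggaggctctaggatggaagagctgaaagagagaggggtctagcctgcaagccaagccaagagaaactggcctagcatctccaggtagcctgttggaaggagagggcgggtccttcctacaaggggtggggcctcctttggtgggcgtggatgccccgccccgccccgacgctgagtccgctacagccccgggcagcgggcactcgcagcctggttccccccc
Gad1: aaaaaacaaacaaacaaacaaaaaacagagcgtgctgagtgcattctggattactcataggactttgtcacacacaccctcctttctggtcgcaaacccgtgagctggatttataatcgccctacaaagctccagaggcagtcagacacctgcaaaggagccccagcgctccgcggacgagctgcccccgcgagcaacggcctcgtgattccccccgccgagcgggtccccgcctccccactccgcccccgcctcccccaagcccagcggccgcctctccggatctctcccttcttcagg
Gad2: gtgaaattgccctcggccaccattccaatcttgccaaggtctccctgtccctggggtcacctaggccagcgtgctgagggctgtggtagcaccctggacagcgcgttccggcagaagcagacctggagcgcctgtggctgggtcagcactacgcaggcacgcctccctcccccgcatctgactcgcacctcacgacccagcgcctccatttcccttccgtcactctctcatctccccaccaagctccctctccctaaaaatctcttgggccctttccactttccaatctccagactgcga
The printed Slc17a6 window held 2 matches, and the Slc17a7, Gad1 and Gad2 windows held 0. Of 32851 RefSeq promoter windows of this length, 39.3% held at least 1 match, so a match is common and no binding was measured here. CpG dinucleotides numbered 8 in the Slc17a6 window, 13 in that of Slc17a7, 21 in that of Gad1 and 14 in that of Gad2, against a median of 7 over all windows.

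In GENCODE M21 on GRCm38, Slc17a6 spans chr7:51622006-51671119, Slc17a7 chr7:45163949-45176142, Gad1 chr2:70553072-70602014, Gad2 chr2:22622205-22693874, Slc32a1 chr2:158610767-158615748 and Slc12a5 chr2:164960802-164999731, all on the plus strand, and Slc17a8 chr10:89574020-89621253 on the minus strand. Values are UMIs over the whole gene, exons and introns together, as nuclear RNA gives them. The opposite-strand genes Gad1os and Gm14205 overlap Gad1 and Slc32a1, and the use of strand in counting was not given in the sources used here. Gm45072, Mir7055, and Gm23636 with Mir3967 overlap Slc17a6, Slc17a7 and Gad2 on the same strand. Counts at these overlaps are therefore uncertain.

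Levels were computed as CPM of all UMIs summed over the nuclei of a class in a library, and are given as mean ± SD over libraries. Each of the 8 genes was then ordered over 20 classes, which gave 19 pairs of neighbours in the order. The gap between neighbours exceeded the larger of their SDs in 1 to 4 pairs per gene, so most neighbouring classes did not differ beyond their spread. A class entered with at least 10 nuclei in a library, which left 10 libraries for the olfactory projection-like, 7 for the cholinergic-like and 4 for the choroid-plexus-like nuclei.

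**Figure D1:**
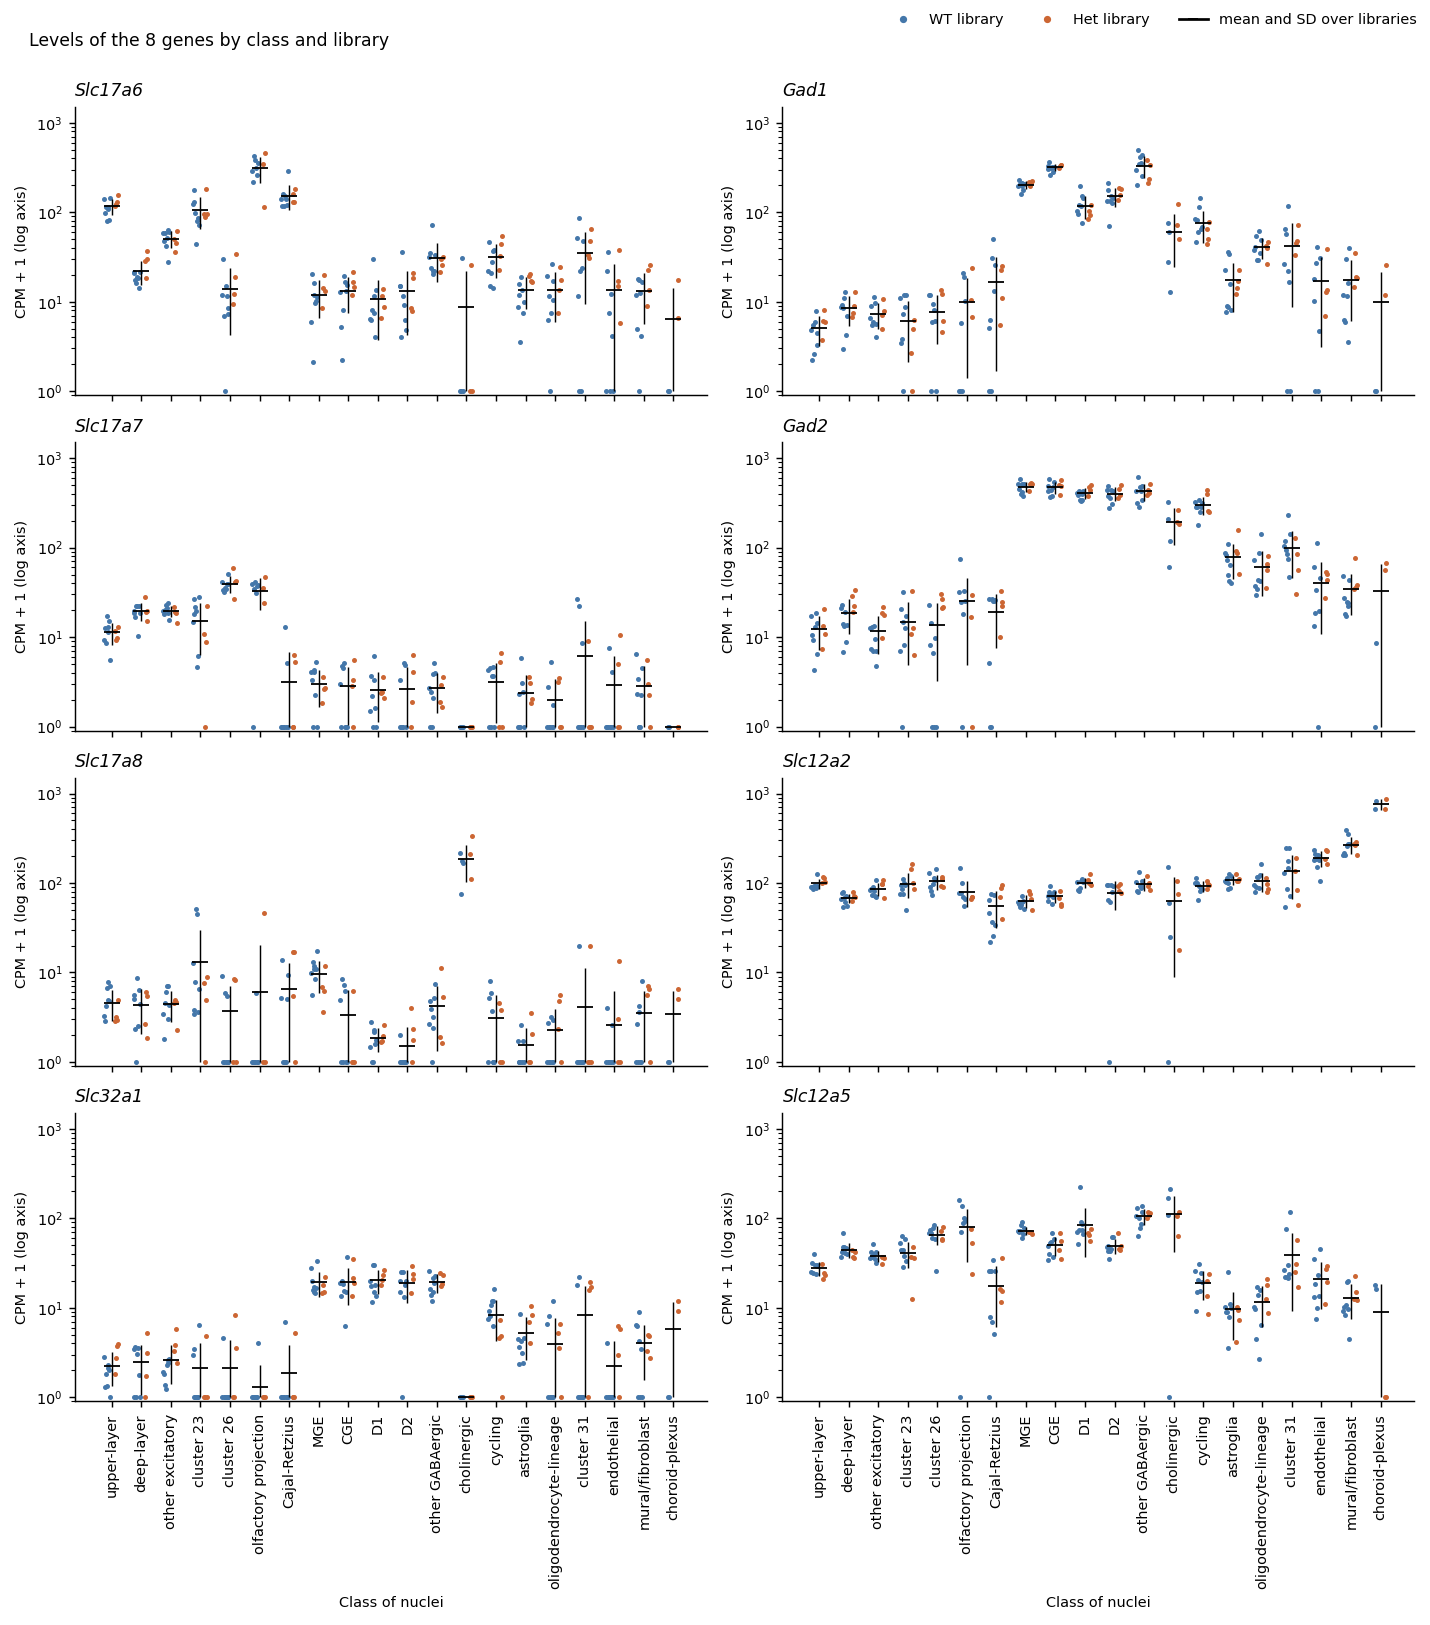
Level of each of the 8 genes (y axis, CPM + 1, log axis) in each class of nuclei (x axis, names without "-like"), with 1 point per WT or Het library and bars for the mean and SD over libraries. Slc17a6 is highest in the olfactory projection class at 315 CPM, Slc17a7 in cluster 26 at 38.7 CPM, Gad1, Gad2 and Slc32a1 in GABAergic classes, Slc17a8 in the cholinergic class at 184 CPM, and Slc12a2 in the choroid plexus at 761 CPM.

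The values of Slc17a6 rest on 10699 UMIs over all nuclei, those of Slc17a7 on 2184 and those of Slc17a8 on 836. Slc17a6 was highest in olfactory projection-like nuclei, at 315 ± 101 CPM (SD, n = 10), then in Cajal-Retzius-like nuclei at 152 ± 47.8 CPM, upper-layer-like nuclei at 116 ± 22.9 CPM and cluster 23 at 105 ± 40.4 CPM (SD, n = 12 each). The gap between the olfactory class and the next exceeded the larger SD, as did that between cluster 23 and the class after it. The gaps among Cajal-Retzius-like, upper-layer-like and cluster 23 nuclei did not. Other excitatory nuclei held 49.4 ± 11 CPM and deep-layer-like nuclei 20.9 ± 6.71 CPM. Between them in the order came cluster 31 at 34 ± 25.6 CPM, cycling nuclei at 30.2 ± 12.9 CPM and other GABAergic nuclei at 29.8 ± 14.1 CPM, and none of these steps exceeded the larger SD. Cluster 26 held 12.9 ± 9.65 CPM, near the 12.6 ± 5.35 CPM of astroglia-like nuclei, a glial class that should not load glutamate vesicles this way (all SD, n = 12). Upper-layer-like nuclei made up 20.7% of nuclei and held 48.8% of all Slc17a6 UMIs.

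Slc17a7 had its highest class mean in cluster 26, where Slc17a6 was near its level in astroglia-like nuclei. Cluster 26, led by Cdh18, Pappa2 and Kcnab1 and carrying L6b and deep-layer markers, held 38.7 ± 8.79 CPM of Slc17a7 (SD, n = 12), and its 1.15% of nuclei held 6.04% of the UMIs of this gene. Olfactory projection-like nuclei held 31.7 ± 12.7 CPM (SD, n = 10), other excitatory nuclei 18.5 ± 2.85 CPM, deep-layer-like nuclei 18.4 ± 4.38 CPM, cluster 23 nuclei 14.2 ± 8.89 CPM and upper-layer-like nuclei 10.4 ± 3.15 CPM (SD, n = 12 each). Of all its steps only that from olfactory projection-like to other excitatory nuclei exceeded the larger SD. Cluster 31 held 5.19 ± 9.03 CPM. Cajal-Retzius-like nuclei, rich in Slc17a6, held 2.14 ± 3.71 CPM of Slc17a7. No Slc17a7 UMI was found in 144 cholinergic-like nuclei, which allows up to 6.42 CPM or a UMI in up to 2.08% of nuclei, or in 236 choroid-plexus-like nuclei, which allows up to 6.81 CPM or 1.27% of nuclei. These limits rest on 3 counts over all libraries of the class and, like every interval given here, cover counting error only.

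Slc17a8 had its highest class mean in cholinergic-like nuclei. Cholinergic-like nuclei held 184 ± 82.9 CPM (SD, n = 7), from 75.1 to 332 CPM with a median of 177, and 12.1% of all Slc17a8 UMIs lay in this class, which was 0.149% of nuclei. Larger classes at lower levels held more of the UMIs in sum, 18.4% in other excitatory, 15.9% in upper-layer-like and 13.8% in MGE-like nuclei. Every one of these 7 libraries exceeded the highest value of any other class, 49.7 CPM in 1 library of cluster 23. MGE-like interneurons held 8.70 ± 3.76 CPM (SD, n = 12), and the remaining classes averaged 12 CPM or less.

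To ask whether the same nuclei carried these transcripts, each nucleus was thinned to 800 UMIs, the lowest total that the filter kept, so that no nucleus was left out. At this depth 5.90% ± 1.26 (SD, n = 12) of excitatory nuclei held a Slc17a6 UMI, and without thinning 13.1% did, at a median of 2205 UMIs per nucleus. Astroglia-like nuclei, with a median of 1327 UMIs, gave 0.773% ± 0.362 at 800 UMIs and 1.54% without thinning, and served as a background. For Slc17a7 the excitatory share was 1.18% ± 0.222 at 800 UMIs and 3.69% without thinning, against 0.104% ± 0.114 and 0.195% in astroglia-like nuclei. Both transcripts were found in 0.0279% ± 0.0165 of thinned excitatory nuclei (SD, n = 12). In olfactory projection-like nuclei this was 0.559% ± 0.352 (SD, n = 10). Thinning lowers the chance of finding both transcripts in 1 nucleus, so these shares do not measure how many nuclei carried both. The share of olfactory projection-like nuclei with Slc17a6 was 22.7% ± 6.34 (SD, n = 10) at 800 UMIs and 52.0% without thinning, at a median of 2264 UMIs.

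Upper-layer-like nuclei, the later born cortical neurons, were compared with deep-layer-like nuclei of the same 12 animals. Slc17a6 in upper-layer-like nuclei ranged from 79.0 to 155 CPM with a median of 115, and in deep-layer-like nuclei from 13.2 to 36.0 CPM with a median of 18.8. The classes did not overlap, and every animal had the higher level in the upper layer. The difference was 2.45 ± 0.31 on the log2(CPM + 1) scale (SD, n = 12, exact sign-flip permutation test, adjusted p = 0.00371 over all genes tested). Slc17a7 ran the other way, from 4.49 to 16.2 CPM with a median of 10.6 in upper-layer-like nuclei and from 9.16 to 27.0 CPM with a median of 18.4 in deep-layer-like nuclei. Here the ranges overlapped, but only 1 of 12 animals had more in the upper layer (difference -0.78 ± 0.52, same exact permutation test, adjusted p = 0.00608). Over all 21123 genes tested in this pair, 28.1% passed the same threshold, so a difference between these layers was common. Slc17a8 gave a difference of 0.23 ± 1.13 (adjusted p = 0.686).

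The share of Slc17a6 among the summed UMIs of Slc17a6 and Slc17a7 sets both genes against each other within a library. This removes the total of the library but not differences that go with UMIs per nucleus. The WT mean in excitatory nuclei was 77.7%, but 74.1% with all deposited barcodes and 80.6% with at most 4000 UMIs. The share was 91.3% ± 3.92 in upper-layer-like nuclei, with a lowest, median and highest library of 83.0%, 92.1% and 96.9%. In deep-layer-like nuclei it was 52.8% ± 9.32, with 38.3%, 51.1% and 67.6%. Their Slc17a6, at 20.9 ± 6.71 CPM, compared with 12.6 ± 5.35 CPM in astroglia-like nuclei, used as a background. D1-like nuclei held 9.68 ± 6.92 CPM, so this background differed between classes. Their Slc17a7 in deep-layer-like nuclei, at 18.4 ± 4.38 CPM, stood well above the 1.35 ± 1.42 CPM of astroglia-like nuclei. No free RNA was subtracted, and the part of background in the deep-layer share was not tested. The share was higher in the upper layer in 12 of 12 animals, by 38.5 ± 7.92 percentage points (SD, n = 12) and from 25.1 to 47.1 points. The two-sided exact sign-flip permutation test gave p = 0.000488, the smallest that 4096 flips allow. The share rested on 41 to 132 UMIs per library in deep-layer-like nuclei and on 184 to 948 in upper-layer-like nuclei. For the highest deep-layer library, Het 4, the exact 95% Clopper-Pearson interval on whole UMIs ran from 57.7% to 76.6%, and for the lowest upper-layer library, WT 4, from 77.8% to 86.8%.

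Other classes filled the range between and beyond. The share was 98.6% ± 2.39 in Cajal-Retzius-like nuclei, 90.6% ± 4.21 in olfactory projection-like nuclei (SD, n = 10), 87.4% ± 9.31 in cluster 23, 71.9% ± 7.60 in other excitatory nuclei and 23.4% ± 13.8 in cluster 26 (SD, n = 12 unless given). Cluster 26 rested on 7 to 29 UMIs per library, and its libraries spread from 0% to 47.1%. Over the 15 excitatory clusters, pooled over libraries, Slc17a6 ran from 5.95 CPM in cluster 4 to 435 CPM in cluster 16, and Slc17a7 from 4.22 CPM in cluster 16 to 38.3 CPM in cluster 26. Cluster 16 was upper-layer-like, led by Sema3c, Unc5d and Svet1, and had a share of 99.0%. Cluster 4, of the other excitatory nuclei and led by Il1rapl2, Runx2 and Esr1, had a share of 16.6%. The other upper-layer-like clusters lay at 96.2%, 94.8%, 77.2% and 74.4%, and the 2 large deep-layer-like clusters at 50.7% and 49.4%. Across the 15 clusters the log2(CPM + 1) levels of both genes had a Pearson r of -0.691 and a Spearman rho of -0.636, a description of clusters that share the same 12 libraries. Over the 20 classes the sign was the opposite (r = 0.631, rho = 0.754). Among the 15 clusters, clusters 15 and 41 stood off the falling trend, with 136 and 101 CPM of Slc17a6 beside 23.6 and 23.8 CPM of Slc17a7. Cluster 41 had only 104 nuclei, so its levels rest on few UMIs and its place is uncertain.

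**Figure D2:**
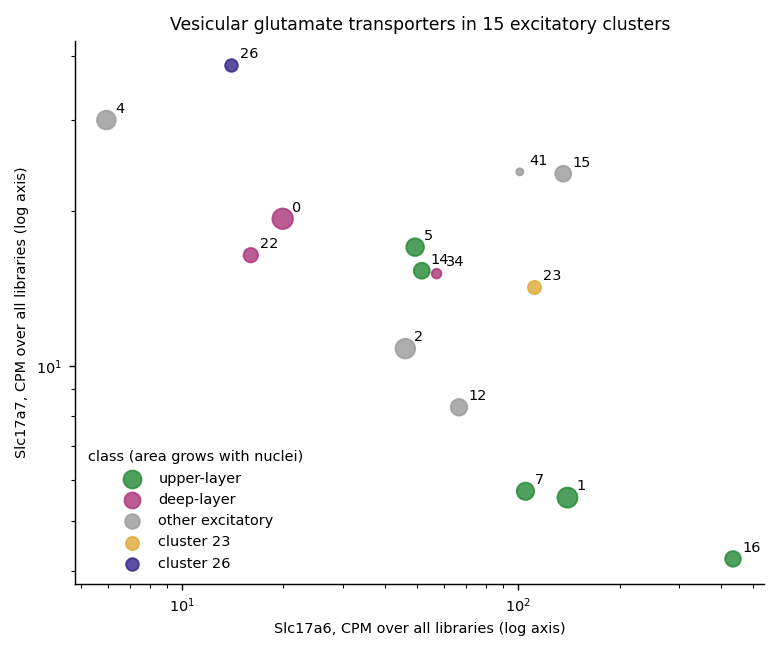
Slc17a7 (y axis) against Slc17a6 (x axis), both as CPM over all libraries on log axes, for the 15 excitatory clusters, 1 numbered point each with its area growing with its nuclei and its colour giving its class. Cluster 16 lies at 435 CPM of Slc17a6 with 4.22 CPM of Slc17a7, and cluster 4 at 5.95 CPM with 30.0 CPM.

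Between genes, levels were compared per length, since nuclear UMIs come from introns too and long genes give more. Per kb of gene, excitatory nuclei pooled over libraries held 1.41 CPM of Slc17a6, which spans 49.1 kb, and 1.31 CPM of Slc17a7, which spans 12.2 kb. By this measure upper-layer-like nuclei held 2.36 CPM per kb of Slc17a6 and 0.848 of Slc17a7, and deep-layer-like nuclei 0.416 of Slc17a6 and 1.52 of Slc17a7. Per kb of exon the values in excitatory nuclei were 12.8 and 2.96 CPM, and in deep-layer-like nuclei 3.79 and 3.43 CPM. Which transporter led in deep-layer-like nuclei thus depended on the length used, whereas Slc17a6 led in upper-layer-like nuclei on both, with 21.5 and 1.92 CPM per kb of exon. No background was subtracted from these levels.

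The values of Gad2 rest on 28555 UMIs and those of Gad1 on 12688. Gad2 was 478 ± 63.4 CPM in MGE-like nuclei, named for the medial ganglionic eminence that gives rise to parvalbumin and somatostatin interneurons, and 471 ± 73.9 CPM in CGE-like nuclei of the caudal eminence. Other GABAergic nuclei held 426 ± 92.3 CPM, and the striatal projection neurons of the D1-like and D2-like classes 406 ± 53.7 and 401 ± 67.9 CPM (SD, n = 12 each). Among these 5 classes no neighbours in the order differed by more than the larger SD, whereas the step from D2-like to cycling nuclei exceeded it. Cycling nuclei, led by Mki67 and Top2a, held 299 ± 68.3 CPM, cholinergic-like nuclei 192 ± 87.1 CPM (SD, n = 7), and excitatory nuclei 12 ± 4.50 CPM. At 800 UMIs, 29.4% ± 2.97 of GABAergic nuclei held a Gad2 UMI and 54.7% did without thinning, at a median of 1921 UMIs, against 0.964% ± 0.380 and 2.35% in excitatory nuclei at a median of 2205 UMIs.

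Gad1 spread further over the same classes. It was 330 ± 92.0 CPM in other GABAergic nuclei, 317 ± 26.6 CPM in CGE-like nuclei, 202 ± 18.9 CPM in MGE-like nuclei, 150 ± 36.5 CPM in D2-like nuclei and 116 ± 33.7 CPM in D1-like nuclei (SD, n = 12 each). The steps from CGE-like to MGE-like and from MGE-like to D2-like nuclei exceeded the larger SD. Within classes, pooled clusters also differed. Cluster 18 of the other GABAergic nuclei, led by Cpne6, Lgr5 and Tshz1, held 568 CPM and cluster 13 of the same class 198 CPM, and in the D1-like class cluster 27, led by Tshz1, Foxp2 and Isl1, held 262 CPM and cluster 3 held 80.3 CPM. Oligodendrocyte-lineage-like nuclei held 40.1 ± 10.7 CPM of Gad1, against 5.80 ± 2.12 CPM in excitatory nuclei (SD, n = 12).

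Slc32a1 was sparse, with 1354 UMIs in all, and nearly level in the GABAergic classes, from 17.8 ± 7.42 CPM in D2-like to 19.4 ± 6.13 CPM in D1-like nuclei (SD, n = 12), with excitatory nuclei at 1.41 ± 0.842 CPM. After the GABAergic classes came cycling nuclei at 7.29 ± 4.05 CPM, the only step in its order over the larger SD. Per kb of gene, pooled GABAergic nuclei held 3.81 CPM of Slc32a1, a short gene of 4.98 kb, 4.14 CPM of Gad1 and 6.14 CPM of Gad2. Per kb of exon the values were 6.79, 26.5 and 74.9 CPM, in the same order. In the 144 cholinergic-like nuclei 0 Slc32a1 UMIs were found, which allows up to 6.42 CPM, although both Gad genes were present there, Gad1 at 59.5 ± 36.2 CPM (SD, n = 7).

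MGE-like and CGE-like nuclei of the same animals were compared next. Gad1 ranged from 160 to 228 CPM with a median of 205 in MGE-like nuclei and from 262 to 363 CPM with a median of 320 in CGE-like nuclei. The ranges did not overlap, and all 12 animals had the lower level in MGE-like nuclei (difference -0.65 ± 0.08 on the log2(CPM + 1) scale, exact sign-flip permutation test, adjusted p = 0.00596). Gad2 gave a difference of 0.03 ± 0.23 and was higher in MGE-like nuclei in 6 of 12 animals (adjusted p = 0.830). Slc17a8 ranged from 2.59 to 16.2 CPM with a median of 9.31 in MGE-like nuclei and from 0 to 7.48 CPM with a median of 0 in CGE-like nuclei. The ranges overlapped, and MGE-like nuclei were higher in 11 of 12 animals (difference 2.04 ± 1.59, adjusted p = 0.0187 in the same exact test). Slc12a5 was higher in MGE-like nuclei in 12 of 12 animals (difference 0.58 ± 0.32, adjusted p = 0.00596). Of the 15741 genes tested in this pair, 17.8% passed.

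D1-like and D2-like nuclei, the striatal neurons of the direct and the indirect pathway, differed in both chloride transporters over all 12 libraries. Slc12a2 ranged from 81.1 to 126 CPM in D1-like nuclei and from 0 to 95.2 CPM in D2-like nuclei, and was higher in D1-like nuclei in 11 of 12 animals (exact permutation test, adjusted p = 0.0284). Its mean difference was 0.80 ± 1.80 with WT 4, which had 15 D2-like and 37 D1-like nuclei and 0 Slc12a2 UMIs in the former. Without WT 4 it was 0.28 ± 0.23, and the unadjusted p of the exact test rose from 0.00195 to 0.00391. An adjusted p without WT 4 is not given here, so whether this call depends on that library is left undecided. Slc12a5 was higher in D1-like nuclei in 11 of 12 animals, at 82.5 ± 46.2 against 48.7 ± 9.65 CPM (difference 0.65 ± 0.71, adjusted p = 0.0178 in the exact test). Without WT 4, whose D1-like value was 225 CPM, the difference was 0.47 ± 0.33. Gad1 was not called (difference -0.37 ± 0.67, adjusted p = 0.322). Its difference without WT 4 was -0.54 ± 0.34, at 109 ± 23.6 against 157 ± 27.4 CPM (SD, n = 11). Its unadjusted p in the exact test fell from 0.0791 to 0.00195 without that library. In this pair 8.58% of 16530 genes passed. Over the 3 pairs of classes, 10 of 23 member comparisons passed. Of all genes tested, 28.1% passed between the layers, 17.8% between MGE-like and CGE-like nuclei and 8.58% here. Slc17a8 had too few UMIs for D1-like against D2-like nuclei.

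Slc12a2 had its highest class means in choroid-plexus-like, mural and fibroblast-like and endothelial-like nuclei. Choroid-plexus-like nuclei held 761 ± 106 CPM (SD, n = 4), mural and fibroblast-like nuclei 267 ± 58.5 CPM and endothelial-like nuclei 188 ± 37.7 CPM (SD, n = 12 each). Within the mural and fibroblast-like class, cluster 28, led by Bnc2 and Itgbl1, and cluster 37, led by Atp13a5 and Abcc9, held 534 and 563 CPM, and cluster 17, led by Ptgds, held 114 CPM. Astroglia-like nuclei averaged 106 ± 13.0 CPM, but cluster 11 of that class held 155 CPM and cluster 6 held 64.2 CPM. Among neurons the class means lay between 54.9 CPM in Cajal-Retzius-like nuclei and 103 ± 20.3 CPM in cluster 26. Astroglia-like nuclei, oligodendrocyte-lineage-like nuclei at 103 ± 24.0 CPM, cluster 26 and D1-like nuclei at 100 ± 12.4 CPM lay within their spread of each other.

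Slc12a5 had its highest class means in neurons. Cholinergic-like nuclei held 110 ± 69.0 CPM (SD, n = 7), other GABAergic nuclei 105 ± 21.3 CPM, MGE-like nuclei 71.9 ± 8.04 CPM, cluster 26 nuclei 64.7 ± 15.6 CPM, deep-layer-like nuclei 43.1 ± 8.52 CPM and upper-layer-like nuclei 26.8 ± 5.10 CPM (SD, n = 12 where not given). Cluster 31 held 38.1 ± 30.0 CPM, astroglia-like nuclei 8.75 ± 5.39 CPM and cycling nuclei 17.9 ± 6.73 CPM. The upper-layer-like cluster 16, the cluster richest in Slc17a6, had the lowest Slc12a5 of the excitatory clusters, at 7.38 CPM. Within the MGE-like class, cluster 21, led by Neto1 and Dgkg, held 96.2 CPM and cluster 8, led by Nxph2 and Kcnc2, 48.6 CPM.

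Upper-layer-like nuclei held more of the importer and less of the exporter than deep-layer-like nuclei of the same animals. Slc12a2 ranged from 85.6 to 125 CPM in upper-layer-like and from 53.5 to 77.6 CPM in deep-layer-like nuclei, and the ranges did not overlap. It was higher in the upper layer in 12 of 12 animals (log2 difference 0.55 ± 0.18, exact permutation test, adjusted p = 0.00371). Slc12a5 ranged from 19.9 to 38.7 CPM in upper-layer-like and from 35.0 to 67.0 CPM in deep-layer-like nuclei, and was lower in the upper layer in 12 of 12 animals (log2 difference -0.67 ± 0.17, adjusted p = 0.00371). The GABA enzymes were low in both layers. Gad1 was lower in upper-layer-like nuclei (log2 difference -0.73 ± 0.79, exact permutation test, adjusted p = 0.0375). It stood at 4.05 ± 1.88 against 7.41 ± 3.04 CPM, both under the 16.5 ± 9.89 CPM of astroglia-like nuclei. Gad2 was not called, at -0.61 ± 0.80 (adjusted p = 0.0593 in the same test). Without cluster 16, which held 43.3 CPM of Gad2, its difference was -1.02 ± 0.64.

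The log2 ratio of Slc12a5 to Slc12a2 CPM placed the classes from exporter to importer. It was 0.23 ± 0.27 in MGE-like, 0.11 ± 0.35 in other GABAergic, -0.39 ± 0.61 in D1-like, -0.54 ± 0.41 in CGE-like, -0.65 ± 0.28 in deep-layer-like, -1.20 ± 0.26 in other excitatory and -1.89 ± 0.35 in upper-layer-like nuclei (SD, n = 12 each). D2-like nuclei stood at -0.74 ± 0.28 (SD, n = 11), cluster 26 at -0.70 ± 0.65, cluster 23 at -1.31 ± 0.94 and Cajal-Retzius-like nuclei at -1.72 ± 1.26 (SD, n = 11). Over fewer libraries, cholinergic-like nuclei stood at 1.18 ± 1.67 (SD, n = 5) and olfactory projection-like nuclei at 0.14 ± 0.79 (SD, n = 9). Outside postmitotic neurons it was -2.44 ± 0.70 in cycling, -3.80 ± 0.85 in astroglia-like and -4.61 ± 0.76 in mural and fibroblast-like nuclei. The ratio compares classes, not the 2 genes, because their lengths differ. Per kb of gene, GABAergic nuclei held 1.94 CPM of Slc12a5 and 1.25 CPM of Slc12a2, and excitatory nuclei 0.912 and 1.30 CPM.

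**Figure D3:**
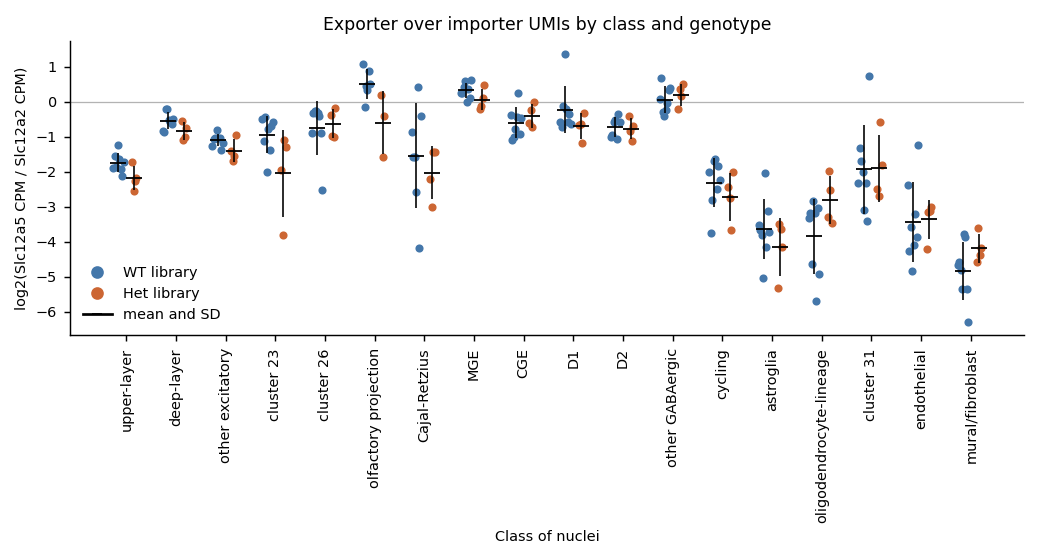
Log2 ratio of Slc12a5 to Slc12a2 CPM (y axis) in 18 classes of nuclei (x axis, names without "-like"), with 1 point per WT or Het library with UMIs of both genes and bars for the mean and SD of each genotype. MGE nuclei lie near 0.23, upper-layer nuclei near -1.89 and astroglia near -3.80.

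To test these genes against Myt1l genotype, Het was set against WT by library with edgeR's quasi-likelihood test on summed counts. None of the 8 genes passed both thresholds, an adjusted p under 0.05 and an absolute log2 fold change no smaller than 0.2, over all nuclei, in 19 classes or in the merged excitatory and GABAergic nuclei. That is 0 of 8 tests over all nuclei, where 0% of 20198 genes passed, and 0 of 93 tests in classes and merged groups. In excitatory nuclei 0.00605% of 16519 genes passed, in GABAergic nuclei 0% of 14316, in MGE-like nuclei 0.0524%, in cluster 23 0.0215% and in the other 17 classes tested 0%. DESeq2 also called 0 of the 8 genes. It called 49 of 20198 genes over all nuclei and 123 of 163245 gene tests in classes and merged groups, so few calls were to be had. At an unadjusted p under 0.05, 11 of 77 tests in classes passed, 14.3% against 6.29% of all 132410 gene tests there. The numbers were 2 of 8 over all nuclei against 10.6% of genes, 6 of 8 in excitatory nuclei against 12.6%, and 0 of 8 in GABAergic nuclei against 7.75%. The 8 genes were chosen with earlier results of these data known, so these counts are descriptions and no independent evidence. The 6 in excitatory nuclei included Slc17a8, Slc32a1 and Gad2, which were low there. The WT and Het libraries separated without overlap in 0 of 176 pairs of a member and a group, and in 0 of the 143 with at least 20 UMIs. Over all genes of at least 20 UMIs in the same groups 0.477% of pairs did. The median log2 fold change of all genes was -0.00103 over all nuclei.

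Slc17a6 gave the smallest p of the 8 genes. In excitatory nuclei WT libraries ranged from 42.2 to 79.1 CPM with a median of 62.1, and Het libraries held 85.4, 85.5, 91.6 and 73.8 CPM. Het 1, Het 2 and Het 3 exceeded every WT library and Het 4, the only female Het, lay within the WT range. The log2 fold change was 0.46 ± 0.13 (SE), with an edgeR adjusted p of 0.241, and from 0.29 to 0.53 over 22 alternatives with adjusted p from 0.0622 to 0.686. The summed level of 10 excitatory markers in these nuclei was 2363 to 3022 CPM in WT and 2570 to 3909 CPM in Het, with 7 of 10 higher on average in Het and none at 0, and its part in the result was not tested. Over all nuclei the Slc17a6 fold change was 0.25 ± 0.13 (edgeR adjusted p = 0.53). A sum over all nuclei mixes classes, so fewer nuclei of a class and less RNA per nucleus cannot be told apart in it. The merged excitatory nuclei mix classes too. Upper-layer-like nuclei, at 116 CPM of Slc17a6, were a median of 35.1% of them in WT and 57.9% in Het. The part of this mix in the excitatory edgeR estimates of the 8 genes was not tested. The estimate was 0.26 ± 0.13 in upper-layer-like (SE, edgeR adjusted p = 0.733), -0.04 ± 0.17 in other excitatory (adjusted p = 0.974) and 0.10 ± 0.26 in cluster 23 nuclei (adjusted p = 0.983). In astroglia-like nuclei, used above as a background, it was 0.80 ± 0.27 (SE, edgeR adjusted p = 0.732). Levels there were 2.54 to 17.7 CPM in WT and 18.3, 19.6, 16.2 and 15.7 CPM in Het. Het 1 and Het 2 lay above the WT range there. The summed level of 10 excitatory markers in astroglia-like nuclei was 194 to 382 CPM in WT and 269 to 475 CPM in Het, with 9 of 10 higher on average in Het and none at 0, and its part in the result was not tested. In deep-layer-like nuclei WT libraries ranged from 13.2 to 20.4 CPM with a median of 17.5, and Het libraries held 27.8, 17.4, 36.0 and 29.3 CPM. Het 2 lay within the WT range and the other Het libraries above it (log2 fold change 0.71 ± 0.16 (SE), edgeR adjusted p = 0.176). Over 22 alternatives this estimate ran from 0.43 to 0.85, and it was called without a filter on low counts alone (edgeR adjusted p = 0.00156). Of the 371 nuclei of the deep-layer-like cluster 34, 271 came from Het 3, and without this cluster the values were 17.1 ± 2.70 CPM in WT (SD, 8 libraries) against 25.0 ± 7.34 CPM in Het (SD, 4 libraries). The summed level of 7 upper-layer markers in deep-layer-like nuclei was 542 to 780 CPM in WT and 675 to 787 CPM in Het, with 5 of 7 higher on average in Het and none at 0, and its part in the result was not tested.

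Slc17a7 in excitatory nuclei ranged from 14.3 to 20.1 CPM in WT with a median of 15.5, and was 16.2, 12, 13.3 and 14.6 CPM in Het libraries. The groups overlapped, with Het 2 and Het 3 below every WT library (log2 fold change -0.28 ± 0.12 (SE), edgeR adjusted p = 0.356), and the estimate ran from -0.36 to -0.11 over 22 alternatives. Over all nuclei it was 9.22 to 15.3 CPM in WT with a median of 10.1, and 10.6, 6.67, 8.32 and 8.95 CPM in Het libraries. Only Het 1 lay within the WT range there (log2 fold change -0.41 ± 0.15 (SE), edgeR adjusted p = 0.390). Slc17a8 in excitatory nuclei was 1.72 to 7.19 CPM in WT and 2.42, 3.04, 2.95 and 1.96 CPM in Het, all within the WT range (log2 fold change -0.64 ± 0.28 (SE), edgeR adjusted p = 0.358). Over 22 alternatives this estimate ran from -0.92 to -0.15.

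**Figure D4:**
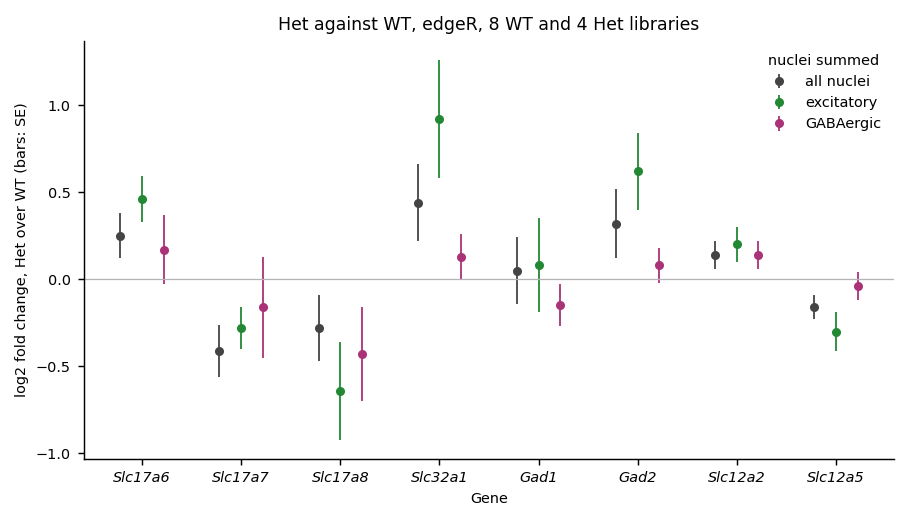
Log2 fold change of Het over WT (y axis, edgeR estimate with an SE derived from its test statistic as bars) for each of the 8 genes (x axis) over all nuclei, excitatory nuclei and GABAergic nuclei. In excitatory nuclei the estimates run from -0.64 for Slc17a8 to 0.92 for Slc32a1, and none has an adjusted p under 0.241.

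The Slc17a6 share in excitatory nuclei was 83.7%, 80.7%, 82.6%, 71.3%, 71.6%, 80.5%, 68.3% and 83.1% in WT 1 to WT 8, and 84.1%, 87.7%, 87.4% and 83.5% in Het 1 to Het 4. Every Het library but Het 4 exceeded all WT libraries, and Het 4 lay below WT 1 alone. In the lowest library, WT 7, the exact 95% Clopper-Pearson interval was 65.0% to 71.5%, and in the highest, Het 2, it was 85.4% to 89.6%. Nearer libraries overlapped, with 81.5% to 85.6% in WT 1, 82.0% to 86.0% in Het 1 and 80.8% to 85.9% in Het 4. The 8 WT libraries averaged 77.7% ± 6.22 and the 4 Het libraries 85.7% ± 2.18 (SD), a difference of 7.93 percentage points with a standard error of 2.46. A two-sided exact permutation test over the 495 assignments of genotype to libraries gave p = 0.0222, where the smallest possible was 0.00202. The call was lost with males only (8.40 points, exact permutation p = 0.0893), without WT 4 (7.02 points) or WT 5 (7.06 points, p = 0.0576 each in the exact test) and without Het 2 (7.25 points) or Het 3 (7.36 points, p = 0.0727 each in the exact test). Upper-layer-like nuclei, which have a high share in both genotypes, made up 19.5% to 41.2% of WT excitatory nuclei with a median of 35.1%, and 24.9% to 63.3% in Het with a median of 57.9%. With each excitatory cluster of at least 1000 nuclei given equal weight, an alternative chosen after seeing the data, the difference was 1.44 points (exact permutation p = 0.333). Within classes it was 2.37 points in upper-layer-like, 8.27 in deep-layer-like, 1.14 in other excitatory, 7.06 in cluster 23 and 9.30 in cluster 26 nuclei. None of the 16 tests within classes and clusters passed after adjustment, the smallest being cluster 4 at 10.7 points (exact permutation p = 0.0162, adjusted p = 0.259).

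**Figure D5:**
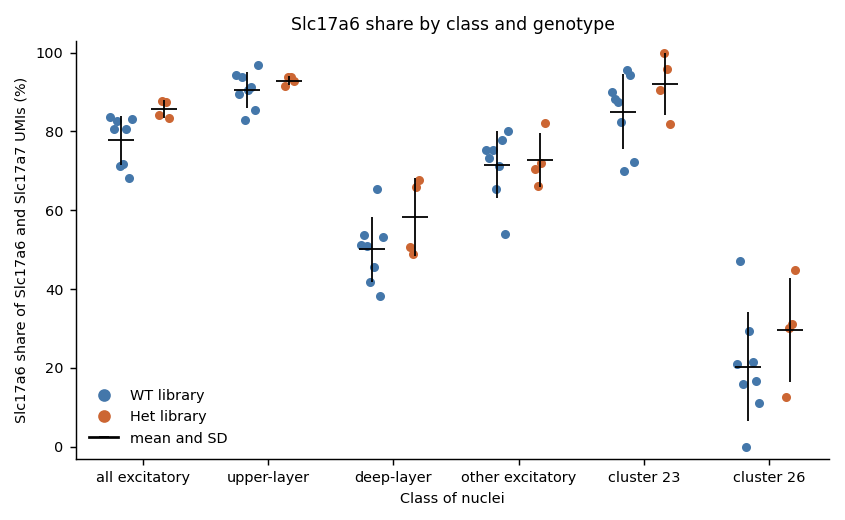
Slc17a6 share of Slc17a6 and Slc17a7 UMIs in percent (y axis) in all excitatory nuclei and in 5 excitatory classes (x axis, names without "-like"), with 1 point per library and bars for the mean and SD of each genotype. All excitatory nuclei average 77.7% in WT and 85.7% in Het, and upper-layer nuclei lie above deep-layer nuclei in each genotype.

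The GABA genes gave small differences in the merged GABAergic nuclei. In GABAergic nuclei Gad2 was 358 to 538 CPM in WT with a median of 425, and 404, 462, 454 and 503 CPM in Het. Gad1 was 157 to 276 CPM in WT with a median of 217, and 215, 174, 188 and 210 CPM in Het. All Het values lay within the WT range for both genes, with log2 fold changes of 0.08 ± 0.10 for Gad2 (SE, edgeR adjusted p = 0.884) and -0.15 ± 0.12 for Gad1 (adjusted p = 0.809). Slc32a1 there gave 0.13 ± 0.13 (adjusted p = 0.840).

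Gad2 and Slc32a1 were also measured in excitatory nuclei, where both were low. Gad2 was 5.85 to 15.0 CPM in WT excitatory nuclei with a median of 9.88, and 9.52, 14.7, 20 and 18.7 CPM in Het. Het 3 and Het 4 lay above the WT range (log2 fold change 0.62 ± 0.22 (SE), edgeR adjusted p = 0.298, from 0.36 to 0.81 over 22 alternatives). In deep-layer-like nuclei Gad2 was 5.87 to 22.1 CPM in WT with a median of 12.9, and 27.8, 17.9, 21.0 and 32.4 CPM in Het, with Het 1 and Het 4 above the WT range. The estimate was 0.87 ± 0.25 there (SE, edgeR adjusted p = 0.292) and 0.87 ± 0.27 in other excitatory nuclei (adjusted p = 0.425), and both were called without a filter on low counts alone (edgeR adjusted p = 8.43e-05 and 0.00961). It was 0.24 ± 0.32 in upper-layer-like (adjusted p = 0.926), 0.73 ± 0.29 in mural and fibroblast-like (adjusted p = 0.992) and 0.45 ± 0.25 in astroglia-like nuclei (adjusted p = 0.853). Slc32a1 was 0.227 to 1.59 CPM in WT excitatory nuclei with a median of 1.02, and 1.13, 1.79, 3.61 and 1.91 CPM in Het (log2 fold change 0.92 ± 0.34 (SE), edgeR adjusted p = 0.301, from 0.52 to 1.16 over 22 alternatives). The summed level of 8 GABAergic markers in the same excitatory nuclei was 14 to 44.3 CPM in WT with a median of 21.9 and 23.5 to 45.4 CPM in Het with a median of 35.0. All 8 markers were higher on average in Het and none was at 0. In deep-layer-like nuclei the sum was 13.2 to 53.3 CPM in WT and 35.5 to 73.6 CPM in Het, again with 8 of 8 higher, and in other excitatory nuclei 13 to 43.4 and 24.4 to 52.8 CPM, with 6 of 8 higher. In upper-layer-like nuclei it was 9.71 to 35.6 CPM in WT and 14 to 41.8 CPM in Het, with 6 of 8 higher, and in mural and fibroblast-like nuclei 21.9 to 145 and 35.3 to 106 CPM, also with 6 of 8 higher. In astroglia-like nuclei it was 80.8 to 272 CPM in WT and 119 to 159 CPM in Het, with only 2 of 8 higher on average in Het. The part of these transcripts in the Gad2 and Slc32a1 estimates was not tested.

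The chloride transporters in excitatory nuclei had estimates of opposite sign, without a call for either gene in all 12 libraries. Slc12a2 was 73.5 to 102 CPM in WT with a median of 80.7, and 95.2, 107, 103 and 76.8 CPM in Het (log2 fold change 0.20 ± 0.10 (SE), edgeR adjusted p = 0.423), and was called with males only (0.30, edgeR adjusted p = 0.0439). Slc12a5 was 31.7 to 49.2 CPM in WT with a median of 37.1, and 33.9, 25.2, 29.8 and 35.6 CPM in Het. Het 2 and Het 3 lay outside the WT range for both genes, above it for Slc12a2 and below it for Slc12a5 (log2 fold change of Slc12a5 -0.30 ± 0.11 (SE), edgeR adjusted p = 0.301, from -0.42 to -0.20 over 22 alternatives). The log2 ratio of Slc12a5 to Slc12a2 was -1.34, -1.17, -1.04, -0.84, -0.93, -1.05, -1.38 and -1.21 in WT 1 to WT 8, and -1.49, -2.09, -1.79 and -1.11 in Het 1 to Het 4. Het 1, Het 2 and Het 3 lay below every WT library and Het 4 within their range. The 8 WT libraries averaged -1.12 ± 0.19 and the 4 Het libraries -1.62 ± 0.42 (SD), a difference of -0.50 (two-sided exact permutation test, p = 0.0121). Het 2 had the lowest ratio, and without it the difference was -0.34 (exact permutation p = 0.0545). With equal weight per cluster it was -0.26 (exact permutation p = 0.127). The merged nuclei mix classes of unlike ratio, -1.89 ± 0.35 in upper-layer-like and -0.65 ± 0.28 in deep-layer-like nuclei. Upper-layer-like nuclei were a median of 35.1% of excitatory nuclei in WT and 57.9% in Het. The part of this mix in the difference of -0.50 was not tested further.

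Within the classes the ratio differed by -0.43 in upper-layer-like, -0.30 in deep-layer-like, -0.29 in other excitatory, -1.10 in cluster 23 and 0.11 in cluster 26 nuclei. None of the 10 classes tested passed (exact permutation tests, smallest adjusted p = 0.187). In GABAergic nuclei the 8 WT libraries averaged -0.07 ± 0.17 and the 4 Het libraries -0.25 ± 0.21 (SD), a difference of -0.18 (exact permutation p = 0.137). Het 4 alone among Het libraries had a ratio above 0 there, at 0.03. In these nuclei Slc12a2 was 69.9 to 88.3 CPM in WT, and 96.4, 89.9, 95 and 76.6 CPM in Het, and Slc12a5 64.1 to 93.4 CPM in WT, and 72.7, 78.6, 70.3 and 78.0 CPM in Het (edgeR adjusted p = 0.706 and 0.948). Het 1, Het 2 and Het 3 lay above the WT range for Slc12a2, and all Het libraries lay within it for Slc12a5. Het effects in excitatory and GABAergic nuclei, which come from the same animals, were tested against each other, and none of the 8 genes differed (exact permutation test, smallest p = 0.0626 and adjusted p = 0.393, for Gad2).

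Genes of the surrounding pathways were read from 5 lists of 40 genes, of which 38 could be tested over all nuclei. In 507 tests over all nuclei, merged groups and classes, 0 genes were called and the smallest edgeR adjusted p was 0.176. Over all nuclei the median log2 fold change was -0.04 for 11 genes of glutamate supply and uptake, 0.03 for 5 genes of GABA uptake and breakdown, 0.00 for 10 genes of chloride and bicarbonate transport, -0.06 for 6 kinases of the SLC12 family and -0.03 for the 6 tested genes of other transmitters. The median over all genes was -0.00103. The gene with the smallest p in each list was Slc1a1, a neuronal glutamate uptake transporter (-0.12), Slc6a11, an astrocytic GABA transporter (-0.14), Slc4a10, a sodium-driven chloride bicarbonate exchanger (-0.23), Wnk2, a kinase of the family that regulates SLC12 cotransporters (-0.09), and Chat, the acetylcholine synthesizing enzyme (0.67). Slc4a10 was 316 to 397 CPM in WT with a median of 359, and 321, 259, 325 and 366 CPM in Het, with only Het 2 below the WT range (edgeR adjusted p = 0.375). Chat was 0.267 to 2.13 CPM in WT and 1.77, 2.20, 1.58 and 1.87 CPM in Het, with overlapping groups (edgeR adjusted p = 0.415).

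The genes most like each member over the 20 classes were chosen by Pearson correlation of log2(CPM + 1) among 11417 genes of at least 20 CPM in 1 class, leaving out markers. Classes share libraries, and each gene was picked by its correlation, so these values are descriptions. Slc17a6 went with Fstl4 (0.863) and Cntn2 (0.863), Slc17a7 with Prss12 (0.933) and Slc32a1 with Gm14204 (0.950). Slc17a8 went with Gm42668 (0.869), Gm5868 (0.858) and Tacr1 (0.845). Gad1 and Gad2 both went with Nrxn3, a presynaptic adhesion protein (0.897 and 0.874), and Gad2 also with Gad1os (0.849), which overlaps Gad1. Slc12a2 went with Pdlim2 (0.948) and Lbp (0.936), and Slc12a5 with A230006K03Rik (0.939), Gm38451 (0.938) and Syn3, a synaptic vesicle protein (0.921). Pdlim2 reached 22.7 CPM in choroid-plexus-like and Gm42668 25.7 CPM in cholinergic-like nuclei, their highest classes. Both thus passed the limit of 20 CPM narrowly, in the class where the member was highest, and their shared peak is no separate result. Among the 8 genes, Gad1 and Gad2 had the closest profiles over the 20 classes (r = 0.960, rho = 0.978), and Slc12a2 and Slc12a5 ran against each other (r = -0.607, rho = -0.510).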

How the data were processed

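Nuclei of 12 P1 forebrains were profiled by single-nucleus RNA sequencing. The authors mapped reads to mm10 with ScaleRna and called nuclei with CellFinder, and the submitters' processing notes name Seurat 4.3.0. The deposited values are expected counts, that is, unnormalized UMI counts per gene and nucleus. Where the read of a UMI matched more than 1 gene its count was shared out, and 6.58% to 6.88% of entries per library are not whole. The design had assumed whole counts, so sums were rounded after summing.

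The files held 126684 barcodes, with 0 barcodes shared between libraries. The stated filter of the study (between 800 and 6000 UMIs, between 300 and 3000 genes, no more than 1% of UMIs mitochondrial, and log genes divided by log UMIs not under 0.9) kept 100035 nuclei with medians of 1972 UMIs and 1205 genes, a gene counting as detected at any value above 0. In place of the authors' doublet caller, the 5% of barcodes per library with the highest share of simulated doublets among their 30 neighbours were removed, 3629 of them among the kept nuclei. No free RNA was subtracted. Nuclei were clustered on 3000 variable genes, which held 0 of the 8 genes, with 50 principal components, 20 neighbours and Leiden resolution 1.5 (leidenalg 0.10.2, igraph 0.11.9, scikit-learn 1.9.0). Of 44 clusters 36 were named, from at least 3 raised markers of a list (log2 rise of at least 0.5), a mean score of at least 0.3, a lead of 0.2 over the next family of classes, a median doublet score under 0.5, and no more markers of another family than of its own among the 10 leading genes. Of the 5 unnamed clusters, 24 and 42 had higher doublet scores, 35 was led by more oligodendrocyte lineage than cycling markers, and 32 and 33 lacked the lead. Clusters 23 and 26 met the thresholds for the excitatory family but kept their numbers. Nr4a2, an L6b marker, led cluster 23, which raised too few markers of that list for its name, and cluster 26 scored highest on that list with deep-layer markers among its leading genes. Cluster 31 kept its number because its leading genes went against the name microglia. This was decided after its leading genes, Mrc1 and F13a1, were seen. The naming thresholds were set after the clusters were seen, without the levels of the 8 genes, and clusters 13 and 4 lay closest to them. Excitatory nuclei are the upper-layer-like, deep-layer-like, other excitatory, cluster 23 and cluster 26 nuclei, 49441 in all, and GABAergic nuclei the 23918 MGE-like, CGE-like, D1-like, D2-like and other GABAergic nuclei. Pooled over libraries, the mix of clusters within some classes was uneven between genotypes, which was not tested.

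Groups came from the labels. Libraries of 1 group differed beyond counting noise (chi-square per degree of freedom of 4.47 or more between any pair), so each was 1 replicate. Het was compared with WT by edgeR 4.0.16 (R 4.3.3) on counts summed per library and class, with genotype as the only term, libraries of at least 10 nuclei and at least 3 libraries per genotype, Benjamini-Hochberg adjustment over all genes tested in a class, and the thresholds of the study (adjusted p under 0.05, absolute log2 fold change no smaller than 0.2). Genes under edgeR's expression filter were not tested. The test gives no SE, so that of an edgeR fold change was derived as its absolute value over the square root of the F statistic. It is approximate and can be smaller than the p-value implies. Shares and ratios were compared by two-sided exact permutation tests over libraries (scipy 1.17.1), and related classes of the same animals by exact sign-flip tests on log2(CPM + 1), over genes of at least 20 UMIs. The design adjusted the latter over members and pairs, and here they were adjusted over all genes tested in each pair. Log2(CPM + 1) understates differences of low genes. The scripts were tested on simulated data. Positions are from GENCODE M21 and promoters from RefSeq.

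The 8 genes and the lists were chosen with earlier results of these data known. The genes named are the 8 members, Myt1l, the first 1 to 3 of the 3 most like each member, and the gene of the smallest p in each pathway list. Abat, clusters and markers were named for description after their values were seen. Alternatives were DESeq2 1.42.0, other size factors, no filter on low counts, males only, sex as a covariate, a stricter gate, at most 4000 UMIs, all deposited barcodes, another pseudocount (10 CPM in place of 1), doublets kept, equal weight per excitatory cluster of at least 1000 nuclei (chosen after seeing the data, as were keeping doublets and leaving out cluster 16), a replicate block, and leaving out each library. Some genes are not reported here.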

Additional observations from a re-analysis of the deposited data

Results flagged for a closer look

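Over all nuclei Slc32a1, the vesicular GABA transporter, stood at 4.91 CPM in Het 1 and between 8.27 and 8.47 CPM in the other 3 Het libraries. The gap to the nearest library was 0.945 of the range of the group, which marks Het 1 as far from the others. In all 56 groups of values were checked in this way, and chance alone marks about 1 group in 20.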

How the results depend on the processing

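Of 22 alternatives, 22 left 0 of the 8 genes called over all nuclei, and 20 left 0 called in classes and merged groups. With males only 1 test passed, Slc12a2 in excitatory nuclei (log2 fold change 0.30, edgeR adjusted p = 0.0439), where 1.36% of genes passed. Without a filter on low counts 3 of 166 tests passed, Gad2 (0.86, adjusted p = 8.43e-05) and Slc17a6 (0.70, adjusted p = 0.00156) in deep-layer-like nuclei, where 0.677% of genes passed, and Gad2 in other excitatory nuclei (0.85, adjusted p = 0.00961), where 0.251% passed, and the cause was not tested. Over the 22 alternatives the edgeR adjusted p ran from 8.43e-05 to 0.803 for Gad2 and from 0.00156 to 0.803 for Slc17a6 in deep-layer-like nuclei, and from 0.00961 to 0.951 for Gad2 in other excitatory nuclei. The classes and merged groups that could be fitted numbered 21, but 19 without Het 3 or with at most 4000 UMIs and 20 without WT 3, WT 4, WT 5, WT 7 or WT 8. Genes called over these groups numbered 7 in the main test, 123 with DESeq2, 339 with males only, 1252 without a filter, 71 with the replicate block, 17 with at most 4000 UMIs, 11 with all deposited barcodes, 2 with doublets kept, 653 without Het 4, 20 without Het 1, 1 without Het 2, Het 3 or WT 6, and 2 without WT 3, and over all nuclei 0, 49 with DESeq2, 15 with males only, 63 without Het 4 and 1 with all deposited barcodes or without WT 3. The Het difference in Slc17a6 share in excitatory nuclei was 8.40 points with males only (exact permutation p = 0.0893) and 1.44 with equal weight per cluster (exact permutation p = 0.333). It was 6.58 to 8.78 with 1 library left out, and no longer passed without WT 4 or WT 5 (exact permutation p = 0.0576 each) or without Het 2 or Het 3 (0.0727 each). The difference in log2 ratio of Slc12a5 to Slc12a2 was -0.26 in excitatory nuclei with equal weight per cluster, and -0.67 to -0.34 with 1 library left out, lost without Het 2. In GABAergic nuclei it was -0.23 with all deposited barcodes (exact permutation p = 0.0444) and -0.28 to -0.12 with 1 library left out, passing without Het 4 (exact permutation p = 0.0485). No direction reversed among these results. The upper against deep layer difference in share kept its call in all 16 alternatives, from 32.5 to 43.5 points. Calls between related classes numbered 8 to 11, against 10 in the main test, so some of those calls were lost.

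WT and Het replicates share numbers within a sex, but the labels give no shared litter or batch, and same-numbered libraries deviated together in 3 of 4 pairs only (correlations of 0.614, 0.216, 0.193 and -0.108), so the numbers were not taken as pairs. Het 4 alone correlated best with its own number. With a replicate block the share difference was 3.80 points and the ratio difference -0.47 in excitatory nuclei, both at p = 0.125, the smallest that an exact test of 4 pairs allows. With at most 4000 UMIs the cholinergic-like and olfactory projection-like classes could not be fitted.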

Other observations

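Unnamed cluster 33, led by the cilium genes Dnah12, Cdc20b and Cfap299, held 31.5 CPM of Slc17a8 over 492 nuclei pooled over libraries, next to the cholinergic-like nuclei at 216 CPM pooled. Other unnamed clusters held at most 3.99 CPM of this gene.

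Cluster 41, a small other excitatory cluster of 104 nuclei led by Cd24a, Marcksl1 and Sox4, held transcripts of both transmitter systems, with 101 CPM of Slc17a6, 23.8 CPM of Slc17a7, 53.5 CPM of Slc32a1, 89.2 CPM of Gad1 and 166 CPM of Gad2 pooled over libraries. The 2 glutamate transporters there rest on 21 UMIs. Whether single nuclei of this cluster carried both was not tested. In cycling nuclei, Gad2 at 299 ± 68.3 CPM stood beside Slc17a6 at 30.2 ± 12.9 CPM (SD, n = 12).

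Among the genes of the pathway lists, Abat, the GABA degrading enzyme, stood at 79.7 CPM in GABAergic and 7.66 CPM in excitatory nuclei. It stood higher in Cajal-Retzius-like nuclei at 119 CPM, astroglia-like nuclei at 102 CPM and mural and fibroblast-like nuclei at 84.4 CPM. Slc4a10 stood at 204 CPM in GABAergic and 383 CPM in excitatory nuclei, below the 3359 CPM of choroid-plexus-like and 1516 CPM of mural and fibroblast-like nuclei. These are levels pooled over libraries and were not tested.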
